A study of Mus musculus with 24 samples.

Results

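The miR-200 family and miR-205, the microRNAs (miRNAs) best known as marks of epithelium, were examined in small RNA libraries of mouse subcutaneous fat. The 6 members were taken by their miRBase accessions out of the 2045 miRNA loci in the deposited table: miR-200a-3p (MIMAT0000519), miR-200b-3p (MIMAT0000233), miR-429-3p (MIMAT0001537), miR-200c-3p (MIMAT0000657), miR-141-3p (MIMAT0000153) and miR-205-5p (MIMAT0000238). All 6 had reads in each library and passed the filter on low counts.

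The mice were female, ate chow and lived at 22 degrees C with 12 hours of light a day. They were either wild type or carried a genotype labelled kinase dead, and were either sedentary or trained. Training was a treadmill run of 1 hour at 16 m/min on 5 days a week for 6.5 weeks, and the labels add free use of a running wheel. Each of the 4 groups (sedentary wild type, trained wild type, sedentary kinase dead, trained kinase dead) had 6 libraries, 24 in all. The sources used here do not say which kinase is inactive, whether in every tissue, how old the mice were or where the fat pad lay, and fat pads of this kind can hold skin, mammary duct, lymph node and muscle.

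A miRNA guides an Argonaute protein to messenger RNAs that pair with its seed, the bases near its 5′ end. The miR-200 family is made as a pair of clusters, miR-200b with miR-200a and miR-429, and miR-200c with miR-141. The family represses the transcription factors ZEB1 and ZEB2 and so keeps cells in an epithelial state, and ZEB1 and ZEB2 in turn repress both clusters. miR-205 is made from a locus of its own, is abundant in the basal cells of skin, mammary gland and other stratified epithelia, and also represses ZEB1 and ZEB2. Adipocytes, endothelium and leukocytes are mesodermal cells in which these miRNAs are usually scarce.

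The mature sequences are shown because the counts of the 5 family members can be told apart only through the few bases in which they differ. They are from RefSeq on GRCm38.p6, run 5′ to 3′, and have the seed (bases 2 to 8) in capitals.
miR-200b-3p: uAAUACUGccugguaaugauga
miR-200c-3p: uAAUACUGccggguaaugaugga
miR-429-3p: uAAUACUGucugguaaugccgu
miR-200a-3p: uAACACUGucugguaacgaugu
miR-141-3p: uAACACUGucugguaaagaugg
miR-205-5p: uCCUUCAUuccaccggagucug
The first 3 share 1 seed, the next 2 share another that differs from it at 1 base, and miR-205-5p has a seed unrelated to either. Each cluster holds both family seeds. Counting from 1 at the 5′ end and giving the base of the first-named miRNA first, miR-200b-3p and miR-200c-3p, from different clusters, differed by U11G and A22G over the 22 bases compared. Likewise miR-200a-3p and miR-141-3p differed by C17A and U22G. Within a cluster the members were less alike, with 4 differences between miR-200b-3p and miR-200a-3p (U4C, C9U, U17C and A22U) and 4 between miR-200c-3p and miR-141-3p (U4C, C9U, G11U and U17A). Base 9 splits the family another way, with C in miR-200b-3p and miR-200c-3p and U in the other 3. Among the 1670 loci with a RefSeq mature sequence, no other one had any of these 3 seeds or the whole sequence of a member. No member overlapped another locus of the table in position.

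On the mm10 build all 6 loci lie on the minus strand. The first cluster is on chromosome 4, with miR-200b-3p at chr4:156055685-156055706, miR-200a-3p at chr4:156054911-156054932 and miR-429-3p at chr4:156053916-156053937. In the GENCODE M21 annotation these lie within the protein-coding gene Ttll10 and the transcript gene Gm13648 on the same strand, miR-429-3p in an exon of Gm13648 and the other two outside its exons. The second cluster is on chromosome 6, with miR-200c-3p at chr6:124718324-124718346 and miR-141-3p at chr6:124717917-124717938, both within the non-coding gene Gm15884 on the same strand, and miR-141-3p also in an exon of Gm29008, a gene to be tested experimentally. miR-205-5p is at chr1:193507503-193507524, in an exon of the long non-coding RNA gene 4631405K08Rik on the same strand. The mature loci of cluster neighbours are 752 bases apart for miR-200b-3p and miR-200a-3p, 973 for miR-200a-3p and miR-429-3p, and 385 for miR-200c-3p and miR-141-3p.

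Library totals ranged from 1.60 to 23.6 M reads, so 3 reads stood for 1.87 to 0.127 CPM on these totals. CPM are counts scaled to a common library size, elsewhere with TMM factors unless said otherwise. The 6 members took 1.09% to 2.42% of the reads of a library. A set of 7 libraries stood apart in miR-150-5p, a lymphocyte miRNA: they held 3460 to 6954 CPM of it, against 551 to 1005 CPM in the other 17. The 7 were 1 of sedentary wild type and 2 of each other group, and they are called lymphocyte-rich below. Other marker miRNAs of epithelium were detected in every library: the 7 listed ones (both arms of miR-203, miR-183-5p, miR-96-5p, miR-182-5p, miR-375-3p and miR-184-3p) summed to 2947 to 5952 CPM. Adipocyte and stromal markers, led by miR-143-3p, summed to 150793 to 275535 CPM. In bulk tissue, fewer cells of a type and less RNA per cell cannot be told apart.

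All 6 members were among the 153 most abundant loci. miR-200a-3p had a mean of 9906 ± 1975 CPM (SD, n = 24) and ranked 25 of 2045 loci. miR-200b-3p followed at 3004 ± 788 CPM (rank 54) and miR-200c-3p at 1647 ± 375 CPM (rank 69). Next came miR-205-5p at 1547 ± 562 CPM (rank 73), then miR-429-3p at 787 ± 201 CPM (rank 98) and miR-141-3p at 309.7 ± 94.1 CPM (rank 153). These are levels of miRNAs of nearly equal length, 22 or 23 bases, and adapter ligation can favour 1 sequence over another, so the order is that of reads. It was the same in 24 of 24 libraries between all neighbours but 1 pair: miR-200c-3p lay above miR-205-5p in 16 of 24.

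The chromosome 4 cluster gave most of the family's reads, 87.4 ± 1.5% (SD, n = 24), with a range of 85.5% to 90.3%. Reads with the seed of miR-200a-3p and miR-141-3p made up 65.3 ± 4.2% of the family, from 58.0% to 74.0%, so the read balance between the 2 seeds varied more than that between the 2 clusters. The opposite arms of the 6 hairpins were scarce. They gave 0.828% of the arm reads for miR-200a, 0.482% for miR-200b, 0.0174% for miR-429, 0.0712% for miR-200c, 2.57% for miR-141 and 0.176% for miR-205. For miR-429-5p that was 28 reads in all, with 0 in 10 libraries, which allows up to 3 reads in each, counting error only. On library totals, 3 reads stood for 0.127 to 1.87 CPM over the depths of all 24 libraries, not only these 10.

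**Figure D1:**
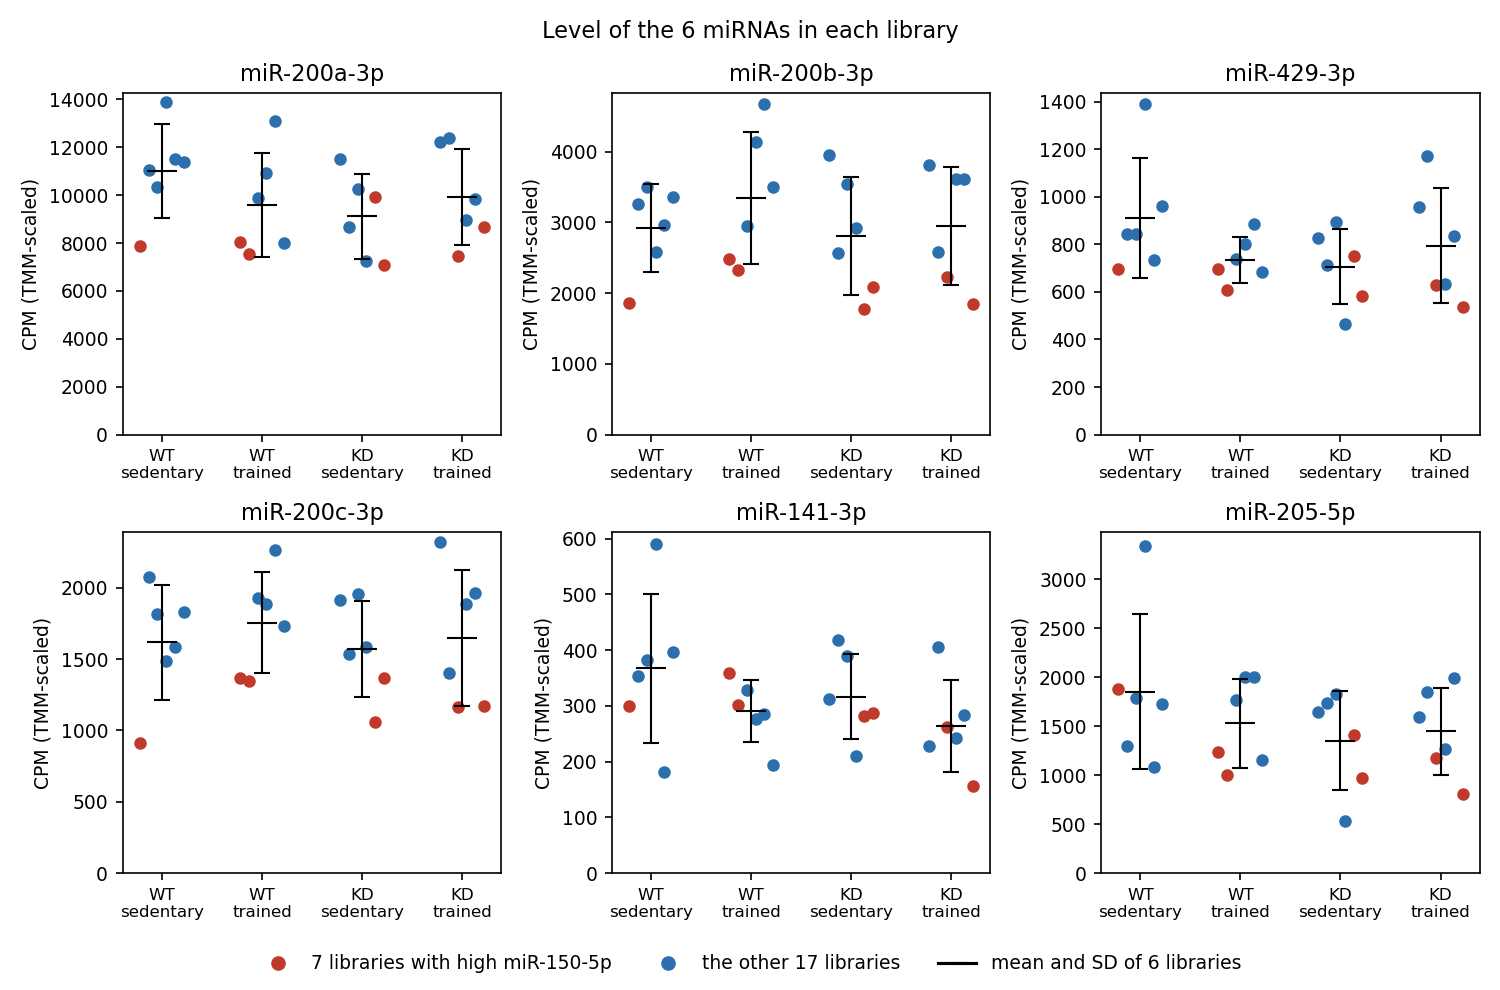
TMM-scaled CPM of each miRNA (vertical axes from 0) in the 6 libraries of each genotype (WT, wild type; KD, kinase dead) and training status; red points are the 7 libraries high in miR-150-5p, and bars give the mean and SD. The groups overlap for all 6 miRNAs, and for miR-200b-3p and miR-200c-3p each red point lies below every blue one.

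Neither training nor genotype moved any member past the threshold. For miR-200a-3p, the most abundant member, the lowest, median and highest libraries had 7870, 11211 and 13905 CPM in sedentary wild type and 7529, 8951 and 13114 CPM in trained wild type. In kinase dead they had 7064, 9304 and 11524 CPM when sedentary and 7455, 9398 and 12379 CPM when trained. The 4 ranges overlapped over most of their length. Its log2 fold change was -0.20 (SE 0.16) with training in wild type and 0.12 (SE 0.16) with training in kinase dead.

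miR-200b-3p, which shares its cluster, ran from 1854 through a median of 3114 to 3500 CPM in sedentary wild type and from 2324 through 3225 to 4675 CPM in trained wild type. The kinase dead libraries ran from 1769.8 through 2742 to 3948 CPM when sedentary and from 1842 through 3097 to 3808 CPM when trained. The highest library was a trained wild type one and the lowest a sedentary kinase dead one, and the groups overlapped. The training log2 fold changes were 0.20 (SE 0.22) in wild type and 0.07 (SE 0.22) in kinase dead.

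miR-429-3p, the third member of that cluster, had its highest library in sedentary wild type, where the lowest, median and highest were 698, 845 and 1389 CPM. Trained wild type had 607, 718 and 885 CPM. Sedentary kinase dead held the lowest library, with 466, 733 and 893 CPM, and trained kinase dead had 536, 734 and 1172 CPM. The medians of the other 3 groups were close to each other, and all 4 ranges overlapped. Its log2 fold change between genotypes in sedentary mice, kinase dead against wild type, was -0.37 (SE 0.20), with an unadjusted edgeR p of 0.0741 (adjusted p = 0.996), the smallest p of any member in that comparison.

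On chromosome 6, miR-200c-3p had 910, 1699 and 2075 CPM (lowest, median, highest) in sedentary wild type and 1349, 1811 and 2261 CPM in trained wild type. In kinase dead the values were 1062, 1559 and 1954 CPM when sedentary and 1167, 1641 and 2318 CPM when trained. The medians of the 4 groups differed by less than the SD inside any of them. The training log2 fold changes were 0.12 (SE 0.20) in wild type and 0.07 (SE 0.20) in kinase dead.

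Its cluster mate miR-141-3p, the scarcest member, had 182, 369 and 589.7 CPM in sedentary wild type and 195, 294 and 359 CPM in trained wild type. The kinase dead libraries had 210.2, 299.8 and 419 CPM when sedentary and 156, 253 and 406 CPM when trained. In both genotypes the trained median lay below the sedentary one, within overlapping ranges. Averaged over genotypes, the training log2 fold change of miR-141-3p was -0.30 (SE 0.17), with an unadjusted edgeR p of 0.0846 and an adjusted p of 0.952.

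miR-205-5p varied most. Sedentary wild type ran from 1084 through a median of 1759 to 3341 CPM, and trained wild type from 998 through 1502 to 2008 CPM. Sedentary kinase dead ran from 537 through 1527 to 1833 CPM and trained kinase dead from 809 through 1431 to 1991 CPM. The highest and the lowest library were both sedentary. The log2 fold change between genotypes in sedentary mice was -0.45 (SE 0.29), with a 95% interval of -1.06 to 0.15.

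Across the table, edgeR's quasi-likelihood test called 0 of 654 features, and so 0% as the background, in each of the 6 comparisons (Benjamini-Hochberg adjusted p under 0.05), and 0 of the 6 members. DESeq2 likewise called 0. At an unadjusted p under 0.05 edgeR had 0 of the 6 members in every comparison, beside 5.81% of all features for training in wild type, 2.6% for training in kinase dead, 5.66% for training averaged over genotypes, 1.99% for the interaction, 0.765% for genotype in sedentary mice and 0.917% for genotype in trained mice. DESeq2 also had 0 members there. With single libraries left out, 1 of 6 members had an unadjusted edgeR p under 0.05 in some fits. For averaged training this was so without replicate 4 of sedentary kinase dead (34 of 692 features) or replicate 2 of trained kinase dead (67 of 688). Without replicate 5 of sedentary wild type it was so for averaged training (42 of 692) and training in wild type (33 of 692).

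Directions were mixed. With training, 4 of 6 members were lower in wild type (background 51.4% of features), 5 of 6 higher in kinase dead (background 46.8%) and 4 of 6 lower in the average (background 52.6%). The interaction was above 0 for 4 of 6 (background 50.6%). In sedentary mice 6 of 6 were lower in kinase dead (background 47.7%), and in trained mice 4 of 6 (background 41.9%). The members' median log2 fold change was -0.24 for genotype in sedentary mice, where that of all features was 0.01. Some members vary together across libraries, and their directions are then not independent of each other. For genotype in sedentary mice edgeR called 0 of the listed marker miRNAs, and the directions of the lists are given without a test. Of the red cell markers 3 of 3 were lower in kinase dead (median log2 fold change -0.81, 1 of them with an unadjusted edgeR p under 0.05), and of the adipocyte and stromal markers 6 of 7 (median -0.10). Of the lymphocyte and leukocyte markers 4 of 4 were higher (median 0.55), and of the 7 other epithelial markers 3 were lower. The liver marker miR-122-5p (-0.82) and the myeloid marker miR-223-3p (-0.10) were lower, as were 2 of 3 striated muscle markers (median -0.09). The endothelium marker miR-126a-3p (0.14) and the 1 nerve marker tested (0.16) were higher. Sedentary kinase dead held 2 lymphocyte-rich libraries and sedentary wild type 1. The part of these lists in the members' values was not tested. Without the 7 lymphocyte-rich libraries, 4 of 6 members were lower in sedentary kinase dead (background 51.2%). Averaged training then had 5 of 6 members higher (median 0.05 on the log2 scale, background 50.8% of features lower). It also had 5 of 6 higher without replicate 4 of sedentary wild type alone (median 0.03, background 52.6% of features lower).

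The intervals show what size of change these libraries leave possible. For miR-200a-3p the fold between trained and sedentary wild type was 0.870, with a 95% interval of 0.688 to 1.10. For miR-205-5p the same interval reached from 0.543 to 1.25. The interval of miR-205-5p was thus the wider one and reached further below 1 than above it.

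**Figure D2:**
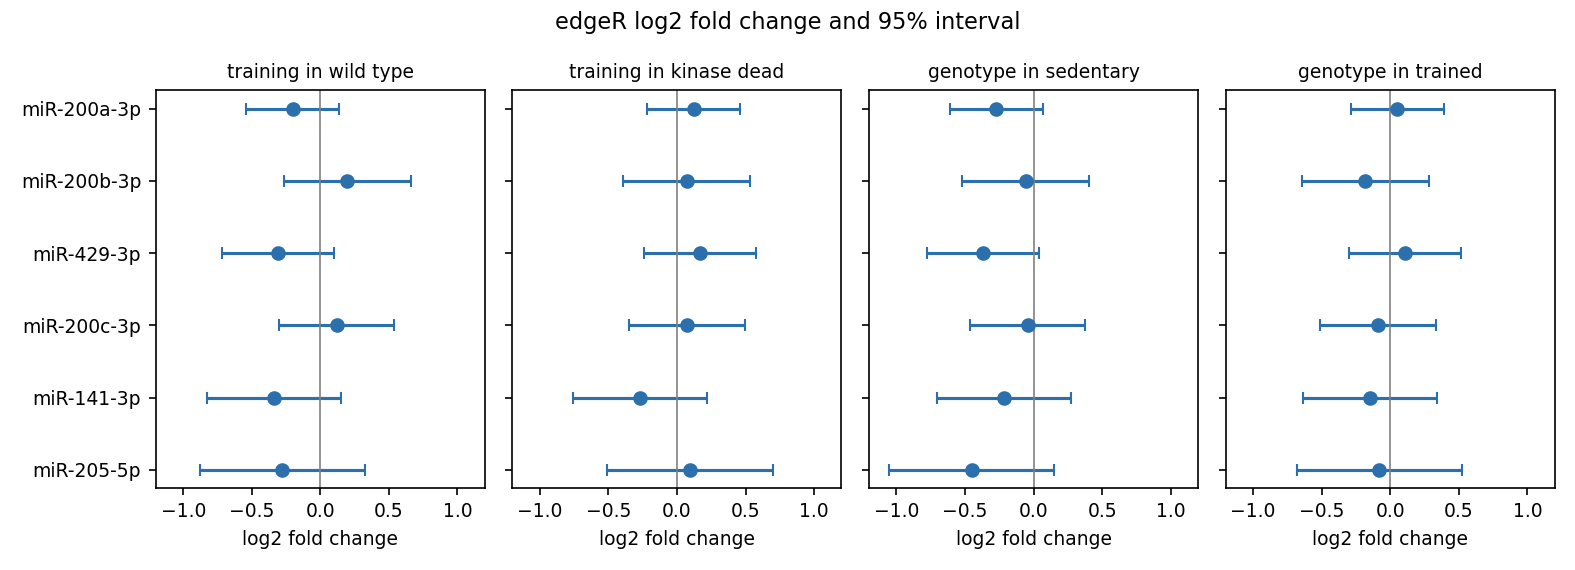
edgeR log2 fold change (points) with its 95% interval (bars) for each miRNA in 4 comparisons of 6 against 6 libraries; training is trained against sedentary, genotype is kinase dead against wild type. All 24 intervals include 0, and those of miR-205-5p are the widest.

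Count ratios of 2 members in the same library need no scaling factor, and 5 ratios were compared in 4 comparisons each by a two-sided exact permutation test over 924 splits. In sedentary wild type the ratio of miR-200a-3p to miR-200b-3p, cluster neighbours with different seeds, was 2.96 to 5.40 with a median of 3.63. In trained wild type it was 2.28 to 3.35 with a median of 3.02. The ranges overlapped in part, and the highest trained library lay below the sedentary median. The mean log2 ratio was 1.93 ± 0.31 (SD, n = 6) against 1.54 ± 0.22, a difference of -0.39 (SE 0.15), with an exact p of 0.0238 and an adjusted p of 0.476 over the 20 tests, so it did not pass. Leaving out replicate 3 of sedentary wild type, the difference was -0.46 with an exact adjusted p of 0.0433; under each other library left out it did not pass.

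In kinase dead the same ratio went from 1.73 ± 0.41 to 1.78 ± 0.40 on the log2 scale with training, a difference of 0.05 (SE 0.23). Whether the 2 genotypes differ in this was not tested for the ratio. The ratio of miR-429-3p to miR-200b-3p, which share a seed, had a log2 difference of -0.46 (SE 0.21) with training in wild type, with an exact p of 0.0541 and an adjusted p of 0.541. The remaining 18 tests had adjusted exact p-values of 0.727 or more.

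Of the 5 ratios, the one that varied least was between the 2 clusters. miR-200b-3p to miR-200c-3p, which share a seed, stayed between 1.53 and 2.19 over the 24 libraries, an SD of 0.15 on the log2 scale. Within the chromosome 6 cluster, miR-141-3p to miR-200c-3p ran from 0.0987 to 0.396, an SD of 0.53. Within the chromosome 4 cluster, miR-200a-3p to miR-200b-3p ran from 2.28 to 5.60 (SD 0.35) and miR-429-3p to miR-200b-3p from 0.160 to 0.540 (SD 0.42). A ratio in that cluster that was added after the values were seen, miR-429-3p to miR-200a-3p, ran from 0.0617 to 0.0999, and its SD of 0.18 was close to that of miR-200b-3p to miR-200c-3p. miR-205-5p to miR-200c-3p ran from 0.339 to 2.24 (SD 0.56).

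**Figure D3:**
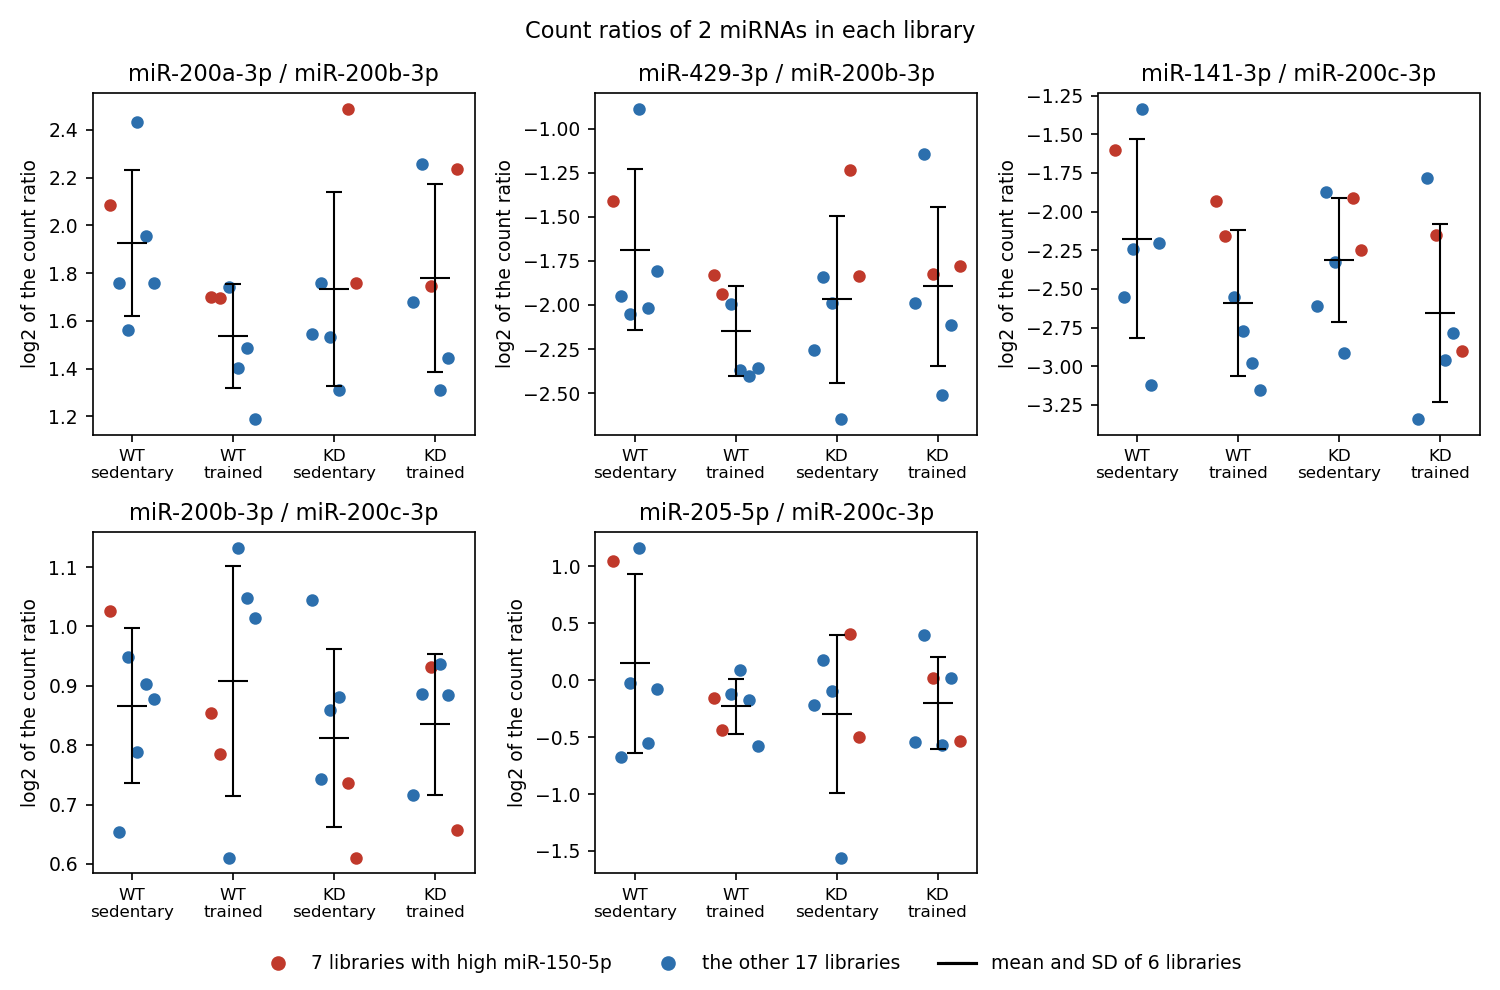
Log2 of the count ratio of 2 miRNAs in each library, by group, with the mean and SD of 6 libraries; red points are the 7 lymphocyte-rich libraries. The vertical ranges differ between panels: miR-200b-3p to miR-200c-3p spans 0.61 to 1.13, and miR-205-5p to miR-200c-3p spans -1.56 to 1.16.

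The members also differed in how far they followed the lymphocyte-rich libraries, a set formed on miR-150-5p alone and given here without a test. miR-200b-3p had a median of 2085 CPM (1769.8 to 2477) in the 7 and 3500.3 CPM (2565 to 4675) in the 17, a ratio of medians of 0.596. miR-200c-3p had 1168 CPM (910 to 1369.9) and 1883 CPM (1400.0 to 2318), a ratio of 0.620. For these 2 members all 7 libraries lay below all 17, which 8 of 654 features did (1.22%), or 6 of the 229 features with at least 100 CPM.

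The other 4 overlapped between the 2 sets. The ratio of medians was 0.720 for miR-200a-3p, 0.753 for miR-429-3p, 0.919 for miR-141-3p and 0.680 for miR-205-5p. All 6 medians were thus lower in the lymphocyte-rich libraries, with a median log2 ratio of -0.52 over the members. It was 0.00 over all features tested and -0.08 over the 229 features with at least 100 CPM. The share of all features with a lower median was not counted. Leukocyte markers summed to 12313 to 21730 CPM in these libraries, beside 1389 to 3105 CPM in the rest. The other epithelial markers summed to 2947 to 4314 CPM against 3693 to 5952 CPM, and adipocyte and stromal markers to 150793 to 201779.5 CPM against 189387 to 275535 CPM. The part of these cell types in the members' levels was not tested.

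The spread between libraries also differed among the members. Over all 24 libraries the SD of log2 CPM was 0.29 for miR-200a-3p, 0.35 for both miR-429-3p and miR-200c-3p, 0.39 for miR-200b-3p, 0.43 for miR-141-3p and 0.54 for miR-205-5p, beside a median of 0.31 over the 229 features with at least 100 CPM. In the 17 libraries that are not lymphocyte-rich, the SD was 0.20 for miR-200c-3p and 0.25 for miR-200b-3p, and 0.55 for miR-205-5p and 0.45 for miR-141-3p (median of the 229 features 0.27). Of those 229 features, 86.5% varied less than miR-205-5p there and 22.3% less than miR-200c-3p.

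Because miR-200b-3p and miR-200c-3p split without overlap between the 7 and the 17 libraries, their correlations are given within the 17. The 2 varied together: Pearson's r of log2 CPM was 0.82 (adjusted permutation p = 0.00138 over 69 relations), Spearman's rho 0.73 (adjusted p = 0.0435), and r was 0.76 without the 2 libraries farthest from the median. Here and below, the farthest libraries are those of the first-named miRNA of a pair. With their cluster mates r did not pass in the 17 libraries. It was 0.14 between miR-200a-3p and miR-200b-3p (rho 0.14, adjusted permutation p = 0.814), -0.10 between miR-200b-3p and miR-429-3p (rho 0.02, adjusted p = 0.886) and -0.24 between miR-200c-3p and miR-141-3p (rho -0.25, adjusted p = 0.616). With CPM on library totals, without scaling factors, these 3 values of r became 0.35, 0.15 and 0.014. All 3 thus moved with the scaling, and the last 2 changed sign. In the same 17 libraries r with the log2 library total was 0.53 for miR-200b-3p (adjusted permutation p = 0.163) and 0.55 for miR-200c-3p (adjusted p = 0.134), and its part in their relation was not tested. Within the 7 lymphocyte-rich libraries r was 0.75 for miR-200b-3p with miR-200c-3p and -0.61 for miR-200a-3p with miR-200b-3p, given as a description. Over all 24 libraries, with both sets together, miR-200a-3p with miR-200b-3p did pass. There r was 0.52 (adjusted permutation p = 0.044) and rho 0.54 (adjusted p = 0.0341). So did miR-200a-3p with miR-200c-3p, from different clusters, with r and rho both 0.53 (adjusted permutation p = 0.0392 for each). For miR-429-3p with miR-200c-3p, also from different clusters, r was 0.35 and did not pass (adjusted permutation p = 0.22). Its rho of 0.51 did (adjusted permutation p = 0.0444). For miR-200b-3p with miR-429-3p r over the 24 was 0.35 (rho 0.48, adjusted permutation p = 0.22 and 0.0668), which did not pass. Both measures of a pair share the library and its scaling factor. Differences between correlations were not tested.

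The 6 pairs without miR-200b-3p and miR-200c-3p are given over all 24 libraries. There r was 0.86 between miR-200a-3p and miR-429-3p (rho 0.88, adjusted permutation p = 0.00023 for both, from 1e-05, the smallest the 100000 resamples can give), and 0.83 without the 2 farthest libraries. Between miR-429-3p and miR-205-5p, on different chromosomes, r was 0.86 (rho 0.77, adjusted permutation p = 0.00023 for both) and 0.75 without the 2 farthest. Weaker relations also passed: miR-141-3p with miR-205-5p at 0.70 (rho 0.54, adjusted permutation p = 0.00262), miR-200a-3p with miR-205-5p at 0.68 (rho 0.61, adjusted p = 0.0023) and miR-429-3p with miR-141-3p at 0.67 (rho 0.56, adjusted p = 0.00262), where the p-values are those of r. Without the 2 farthest libraries these 3 values of r were 0.53, 0.59 and 0.51. The pair that shares the other family seed, miR-200a-3p and miR-141-3p, had r = 0.36 (rho 0.32, adjusted permutation p = 0.205).

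Replicate 4 of sedentary wild type, the shallowest library, was the highest in miR-200a-3p, miR-429-3p, miR-141-3p and miR-205-5p, and replicate 4 of sedentary kinase dead was the lowest in miR-429-3p and miR-205-5p. Without both of these libraries, an alternative chosen after seeing the data, r over the remaining 22 was 0.82 for miR-200a-3p with miR-429-3p, 0.75 for miR-429-3p with miR-205-5p, 0.51 to 0.59 for the 3 weaker relations and 0.15 for miR-200a-3p with miR-141-3p. For pairs with miR-429-3p named first, these were also the 2 farthest of the 24, so their values repeat those above and are no second check. Within the 17 libraries r of miR-429-3p with miR-205-5p was 0.84 (rho 0.62, adjusted permutation p = 0.00276 and 0.169), and 0.52 without the 2 farthest. For miR-200a-3p with miR-429-3p it was 0.86 (rho 0.78, adjusted permutation p = 0.00069 and 0.0221), and 0.79 without them. The 3 weaker relations had r of 0.71, 0.70 and 0.68 in the 17 (rho 0.59, 0.46 and 0.61, with adjusted permutation p-values of rho of 0.169, 0.297 and 0.169), and 0.57, 0.41 and 0.47 without the 2 farthest. Over 24 libraries r of a member with the log2 library total lay between -0.21 and 0.34, with a smallest adjusted permutation p of 0.22. Within the 17 it lay between -0.35 and 0.55, with a smallest adjusted permutation p of 0.134.

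**Figure D4:**
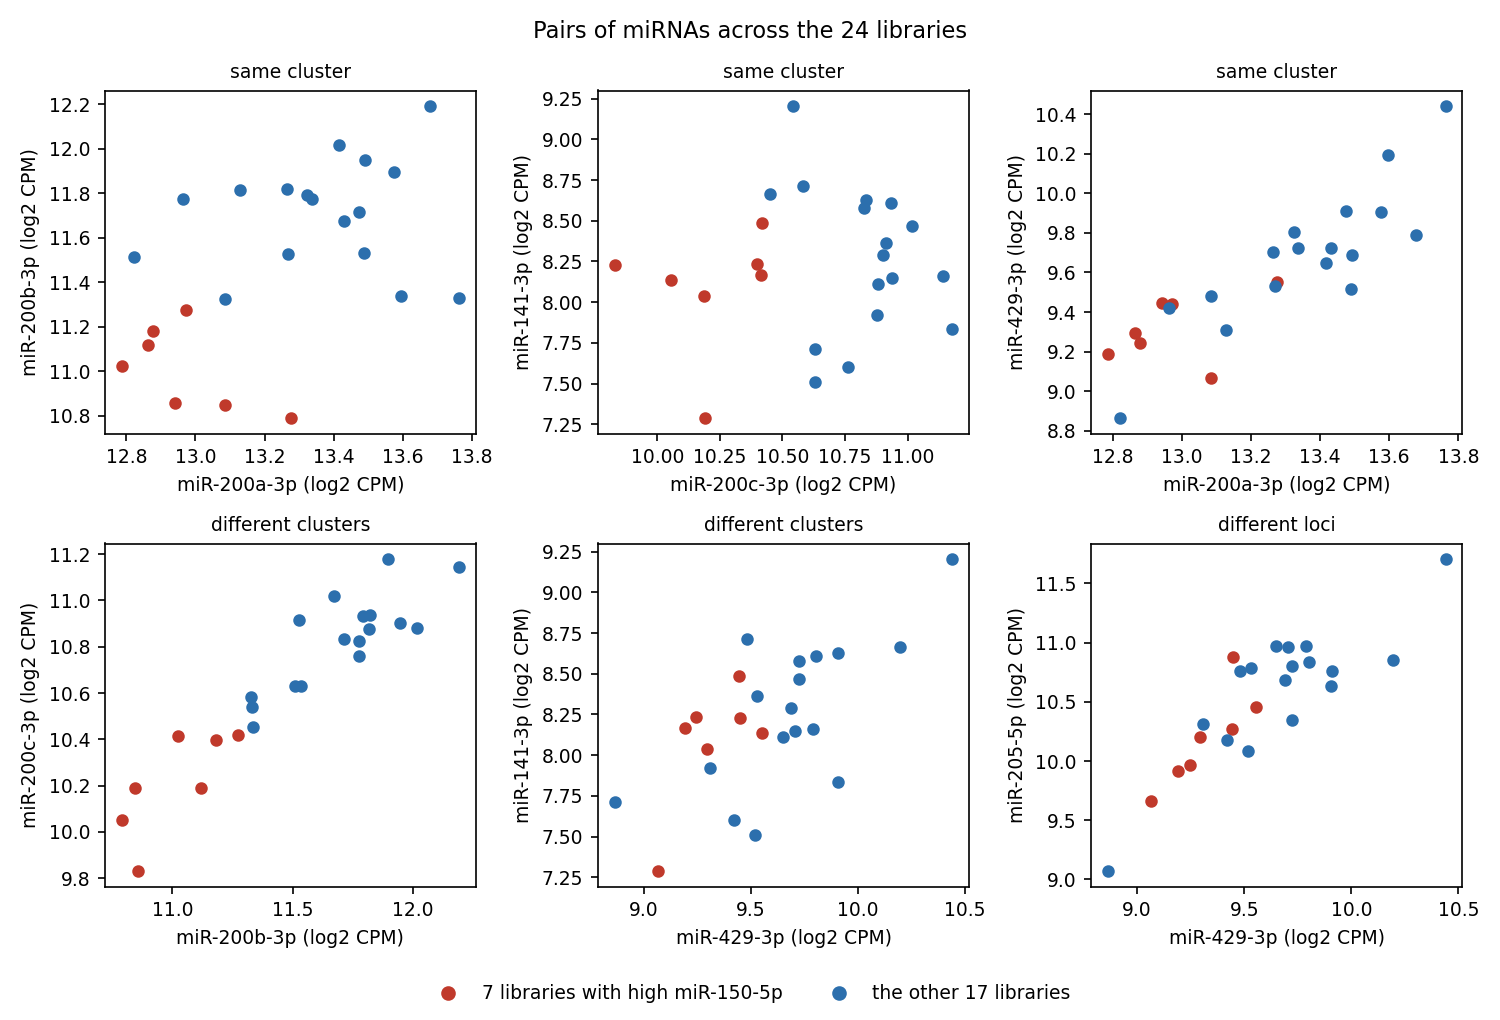
Log2 CPM of 6 pairs of miRNAs, 1 point per library; red points are the 7 lymphocyte-rich libraries and blue points the other 17. miR-200b-3p and miR-200c-3p, from different clusters, lie along a line (r = 0.82 in the 17 and 0.93 in all 24). The cluster mates miR-200a-3p and miR-200b-3p are more scattered (r = 0.14 in the 17 and 0.52 in all 24).

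Among 374 other features with at least 10 CPM, those most like the mean log2 CPM of the 5 family members over the 24 libraries were miR-195a-5p (r = 0.73), miR-125b-5p (0.69), miR-182-5p (0.69), miR-31-5p (0.69) and miR-708-5p (0.66). In the 17 libraries that are not lymphocyte-rich only miR-31-5p of these 5 held a like value, 0.77, and the other 4 had r between -0.02 and 0.36. For miR-205-5p the 5 were miR-31-5p (0.76), miR-204-5p (0.73), miR-181d-5p (0.72), miR-96-5p (0.66) and miR-125a-5p (0.63), and in the 17 they had r between 0.58 and 0.73. These are the highest of many values, chosen for being high, and carry no test.

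The 7 other epithelial miRNAs gave 0 calls in the 6 comparisons by edgeR. At an unadjusted edgeR p under 0.05, 2 of 7 had a difference with training in wild type (all features 5.81%) and 2 of 7 with training averaged over genotypes (all features 5.66%), each time both arms of miR-203, a miRNA of differentiating skin cells. miR-203-3p went from 2140 ± 402 CPM (SD, n = 6) in sedentary to 2883 ± 411 CPM in trained wild type, a log2 fold change of 0.43 (SE 0.15, edgeR adjusted p = 0.831). In the same comparison miR-200b-3p at 0.20 and miR-200c-3p at 0.12 were also above 0, and miR-200a-3p at -0.20, miR-205-5p at -0.28, miR-429-3p at -0.31 and miR-141-3p at -0.34 were below. The difference between the miRNAs was not tested. Within the 17 libraries r with miR-203-3p was 0.58 for miR-200b-3p (rho 0.51, adjusted permutation p = 0.117) and 0.50 for miR-200c-3p (rho 0.39, adjusted p = 0.192), and between -0.60 and -0.12 for the other 4 members, with a smallest adjusted permutation p of 0.0914. These values do not stand for the whole epithelial list. Of that list, miR-96-5p, picked above for its high r, had r = 0.58 with miR-205-5p in the 17. Values of r with miR-183-5p and miR-375-3p are not given here. In kinase dead the log2 fold change of miR-203-3p was 0.18 (SE 0.15, edgeR adjusted p = 0.997). The 1 of 7 with an unadjusted edgeR p under 0.05 for training in kinase dead (all features 2.6%) was miR-184-3p, with a log2 fold change of -1.12 (SE 0.54, adjusted p = 0.997).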

How the data were processed

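Small RNA was extracted with TRIzol and made into libraries with a NEBNext kit, per the labels' protocols. The tools were featureCounts, Bowtie2, Trim Galore and CASAVA 1.8.2 on mm10, per the submitters' processing notes. No setting for mismatches, multiple mapping or strand is given in the sources used here, so how reads that match several family members were assigned is not known. The authors deposited raw counts per mature miRNA locus, without normalization. Of 2045 loci, 1670 were named from RefSeq mature entries and 373 from GENCODE M21 hairpins, and 2 have no name.

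All 654 features kept by filterByExpr were fitted together in edgeR 4.0.16 (R 4.3.3, quasi-likelihood test, TMM factors, 4 group means, Benjamini-Hochberg over 654), after the script was tested on simulated data. DESeq2 1.42.0 was an alternative. Count ratios had 0.5 reads added to each count. Permutation tests used scipy 1.17.1. Other alternatives were RLE size factors, no filter, library totals, 5 reads added, and leaving out each library or the 7 lymphocyte-rich ones, which were set by the largest gap in miR-150-5p.

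The members and lists were chosen with earlier results of these data known. The text names the 6 members, their opposite arms, an epithelial list and the 5 features most correlated with the family mean and with miR-205-5p. Replicate numbers were given in accession order and so pair no libraries. No label says that each library is a separate mouse, and the p-values therefore refer to the spread among libraries, which may be technical.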

Additional observations from a re-analysis of the deposited data

Results flagged for a closer look

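Of 44 sets of 6 values (6 levels and 5 ratios in 4 groups), 2 held a library far from the other 5, with a gap to its neighbour above 0.625 of the whole range. Chance gives about 1 in 20 such sets. In sedentary wild type, miR-205-5p stood at 3341 CPM in replicate 4, and between 1084 and 1882 CPM in the others. In sedentary kinase dead, the count ratio of miR-200a-3p to miR-200b-3p was 5.60 in replicate 5, a lymphocyte-rich library, and between 2.48 and 3.39 in the others.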

How the results depend on the processing

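Depth did not limit the 6 members, which had 156 CPM or more in every library, but it limits their opposite arms. Group means kept their value within 1 SD under every alternative, and 36 of 36 log2 fold changes kept their direction with DESeq2 and with RLE size factors. No feature was called under any alternative. Most fold changes lie near 0, so signs turned easily. Without the filter, miR-200a-3p in the averaged training comparison was 0.0047. Without the lymphocyte-rich libraries the log2 values that turned were, for averaged training, miR-200a-3p 0.031, miR-429-3p 0.011 and miR-205-5p 0.068; for genotype in sedentary mice, miR-200b-3p 0.069 and miR-200c-3p 0.0097; for genotype in trained mice, miR-141-3p 0.078. Of the log2 ratios, miR-141-3p to miR-200c-3p by genotype in trained mice became 0.15, and miR-200b-3p to miR-200c-3p became -0.026 for training in kinase dead and 0.047 for genotype in sedentary mice.

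Leaving out each library in turn, the following log2 fold changes crossed 0. For training in wild type, miR-200c-3p ran from -0.0098 to 0.23. In kinase dead, training gave miR-200a-3p -0.0082 to 0.21, miR-200b-3p -0.091 to 0.19, miR-429-3p -0.032 to 0.25, miR-200c-3p -0.079 to 0.18 and miR-205-5p -0.066 to 0.17. Averaged training gave miR-200a-3p -0.11 to 0.038, miR-429-3p -0.18 to 0.013 and miR-205-5p -0.18 to 0.040. The interaction gave miR-200c-3p -0.25 to 0.025 and miR-141-3p -0.13 to 0.17. Genotype gave, in sedentary mice, miR-200b-3p -0.16 to 0.089 and miR-200c-3p -0.12 to 0.092, and in trained mice miR-200a-3p -0.074 to 0.12, miR-429-3p -0.041 to 0.20 and miR-205-5p -0.22 to 0.042. Log2 ratios that crossed 0 were, for training in kinase dead, miR-200a-3p to miR-200b-3p -0.049 to 0.20, miR-429-3p to miR-200b-3p -0.076 to 0.22, miR-200b-3p to miR-200c-3p -0.018 to 0.069 and miR-205-5p to miR-200c-3p -0.16 to 0.24; for training in wild type, miR-200b-3p to miR-200c-3p -0.0042 to 0.10; for genotype in sedentary mice, miR-141-3p to miR-200c-3p -0.33 to 0.029, and in trained mice -0.24 to 0.076, with miR-205-5p to miR-200c-3p -0.090 to 0.10. The count of ratios past the threshold was 0 to 1 of 20, with 1 only without replicate 3 of sedentary wild type. The cause of these changes was not tested.

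With CPM on library totals, 3 correlations within the 17 libraries turned: miR-200b-3p with miR-429-3p to 0.15, miR-429-3p with miR-200c-3p to 0.24 and miR-200c-3p with miR-141-3p to 0.014. A further 5 moved by over 0.2, all of them pairs with miR-200b-3p or miR-200c-3p, among them miR-200a-3p with miR-200b-3p at 0.35. No paired analysis was possible because replicate numbers follow accession order.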
